A study of Homo sapiens with 6 samples.

Results

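Catalase (CAT), malic enzyme 1 (ME1), peroxiredoxin 1 (PRDX1) and glyoxalase I (GLO1) are 4 enzymes that handle peroxides, NADPH and reactive aldehydes. They were taken by gene name from the deposited table of 5681 genes, and all 4 were in it. The study depleted OGT, the transferase that attaches O-linked N-acetylglucosamine to nuclear and cytosolic proteins, in HT-29, a human cell line established from a colorectal cancer. RNA was sequenced from 3 libraries of cells labelled WT and carrying the Scramble hairpin (numbered 1 to 3) and 3 libraries labelled OGT knock down and carrying a hairpin against OGT (shOGT, numbered 4 to 6). All 6 libraries are of the same cell line, and no untransduced cells are among them. The labels do not say whether the libraries of a group came from separate cultures, so the p-values measure only the spread between these libraries, which may be technical. OGT itself ranged from 9628 to 11638 normalised reads under Scramble, against 484 to 621 under shOGT.

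The values are read counts that the authors divided by 1 size factor per library, and they are called normalised reads here. Within a library the values rise in equal steps of 1 read, so the reads behind every value are known. The libraries held 3302558 to 4504303 reads on the genes of the table, with size factors from 0.879 to 1.13. By the authors' own columns, the table holds only genes that differed at least 2-fold with an adjusted p under 0.05. A member is therefore in the table because it had already passed that comparison, and the test below repeats the selection rather than adding independent evidence. Of 10 markers of colon epithelium, 4 were in the table, KRT20 and CDH17 higher in shOGT and LGALS4 and VIL1 lower, and their sum was 4720 to 5339 normalised reads in Scramble and 6951 to 7211 in shOGT. Of the 11 markers of other cell types, LYZ (7918 to 8617 in Scramble, 15653 to 17397 in shOGT) and PECAM1 (42.3 to 51.4 against 129 to 200) were in the table, and their part in the results was not tested. In bulk RNA, fewer cells of a type and less RNA per cell cannot be told apart.

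Hydrogen peroxide is removed in separate places of the cell. Catalase breaks it down to water and oxygen inside peroxisomes without using a reductant, whereas peroxiredoxin 1 reduces peroxides in the cytosol and nucleus with thioredoxin, which is in turn kept reduced by NADPH. Malic enzyme 1 supplies cytosolic NADPH by converting malate to pyruvate. Glyoxalase I detoxifies methylglyoxal, a by-product of glycolysis, using glutathione. PRDX1 and ME1 are textbook targets of NRF2, the transcription factor that answers oxidative stress through the antioxidant response element. Whether CAT and GLO1 also answer to NRF2 was not examined here.

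RefSeq promoter sequences (GRCh38.p14, 250 bases before to 50 after the RefSeq start) were found for 3 of the 4 genes, CAT, ME1 and GLO1. The RefSeq starts differ by some bases from the gene positions given below. The members and motifs were chosen with earlier results of these data known. The shares of promoters given below therefore describe the windows and are no evidence about the changes. Whether these letters bear on the changes was not tested, and no sequence was found for PRDX1. Capitals mark matches on either strand to TGACNNNGC, the core of the antioxidant response element (N is any base), or to CCAAT, the box bound by the factor NF-Y. No marked matches overlap. The promoters lie at chr11:34438684-34438983 on the plus strand for CAT, at chr6:83431002-83431301 on the minus strand for ME1 and at chr6:38703096-38703395 on the minus strand for GLO1.
ME1: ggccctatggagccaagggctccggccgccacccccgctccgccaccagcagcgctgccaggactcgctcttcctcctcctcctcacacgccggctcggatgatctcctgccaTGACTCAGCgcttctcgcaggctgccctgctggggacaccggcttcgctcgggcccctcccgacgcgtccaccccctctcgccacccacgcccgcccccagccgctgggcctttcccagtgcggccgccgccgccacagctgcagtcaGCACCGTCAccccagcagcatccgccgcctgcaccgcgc
CAT: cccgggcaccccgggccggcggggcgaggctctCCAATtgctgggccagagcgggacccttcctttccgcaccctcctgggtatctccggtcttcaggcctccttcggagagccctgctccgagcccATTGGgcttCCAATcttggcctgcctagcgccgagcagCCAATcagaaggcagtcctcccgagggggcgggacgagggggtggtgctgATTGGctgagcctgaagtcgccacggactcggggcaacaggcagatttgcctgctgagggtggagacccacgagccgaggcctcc
GLO1: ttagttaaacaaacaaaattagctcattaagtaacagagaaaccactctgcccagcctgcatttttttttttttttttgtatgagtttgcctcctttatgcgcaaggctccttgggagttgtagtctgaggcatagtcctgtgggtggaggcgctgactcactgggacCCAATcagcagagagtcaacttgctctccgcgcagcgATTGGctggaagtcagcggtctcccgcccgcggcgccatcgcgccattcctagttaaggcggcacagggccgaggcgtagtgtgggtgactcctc

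The ME1 window held 2 matches to the antioxidant response element core. TGACTCAGC had its leading base at position −137 relative to the RefSeq start, and GCACCGTCA, a match on the opposite strand, at position 11. At least 1 such match was present in 13.3% of 35116 promoters of the same length, and at least 2 in 1.13%. CAT and GLO1 held none. The CAT window held 5 CCAAT boxes on both strands together, a number reached by 0.359% of promoters, and GLO1 held 2, a number reached by 10.8%. CCAAT occurred at least once in 34.6% of promoters, and ME1 held none. The E-box CACGTG, which MYC is known to bind, was in none of these 3 windows and in 7.26% of all promoters. These are matches of letters in short windows, and no binding was measured.

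PRDX1 and ME1 rose upon OGT depletion, and CAT and GLO1 fell. ME1 reached 5.63 times and PRDX1 2.68 times the Scramble mean in shOGT, while CAT was left with 31.4% and GLO1 with 44.8%. All 4 genes passed a 2-fold change with a Benjamini-Hochberg adjusted p under 0.05 from limma's trend method on log2(normalised reads + 1), a scale that slightly understates the change of genes with few reads. Of 5671 genes tested, 99.4% passed in either direction, 52.2% were higher and 47.2% were lower, so that passing says nothing particular about these genes. Likewise the groups did not overlap for any of the 4, as for 99.3% of the 5681 genes of the table. Permuting the 6 values of each gene between the groups, exact and two-sided, gave p = 0.1, below which 3 libraries against 3 cannot go.

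**Figure D1:**
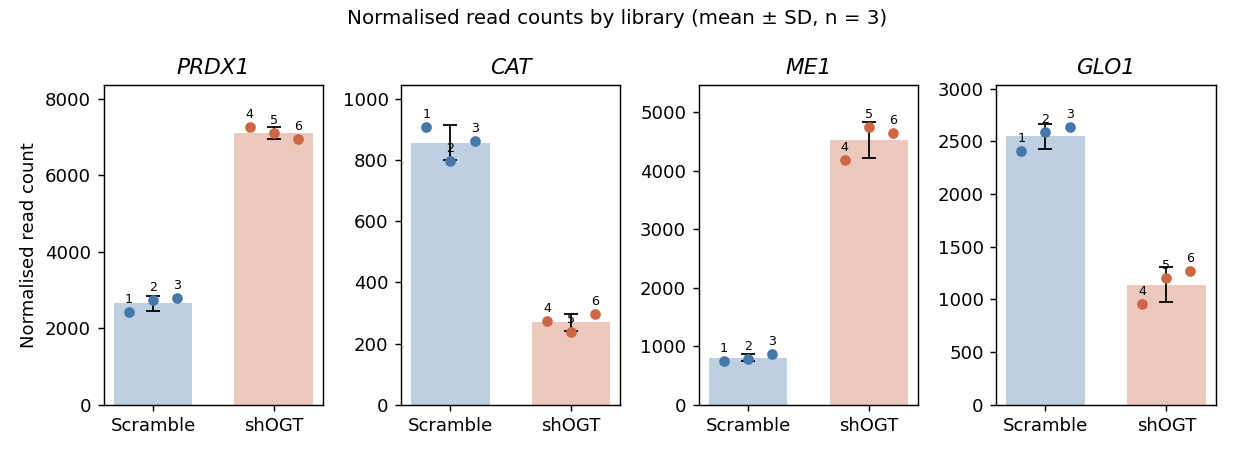
Normalised read counts (vertical axes, each from 0) of the 4 redox enzyme genes in Scramble and shOGT. Bars are means, error lines the SD (n = 3), and points the libraries with their numbers. PRDX1 and ME1 lie higher in every shOGT library (at least 6944 and 4183) than in any Scramble library, and CAT and GLO1 lie lower.

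PRDX1 (ENSG00000117450, chromosome 1 from 45511036 to 45523047, minus strand, 6 exons in its longest coding transcript) was the most abundant of the 4 genes. Scramble libraries 1 to 3 held 2414, 2741 and 2789 normalised reads of it, and shOGT libraries 4 to 6 held 7270, 7097 and 6944. The shOGT libraries lay close together and 4155 above the highest Scramble library. The means were 2648 ± 204 and 7104 ± 163 (SD, n = 3 each), which puts the log2 fold change at 1.43 ± 0.08 (standard error) with adjusted p = 1.53e-09 from limma. With 6101 to 6907 reads in the shOGT libraries, the error from counting alone was 1.24%, against a coefficient of variation of 2.29% between libraries. Among the 605 other genes tested with a Scramble mean within 2-fold of that of PRDX1, 27.6% were higher and 49 had a higher log2 fold change.

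The far end of PRDX1 runs into MMACHC, a gene of vitamin B12 processing on the opposite strand. Exons of MMACHC cover 24.9% of the exon bases of PRDX1, and 26.5% of the stretches of 75 bases in the PRDX1 transcript also occur in a transcript of another gene, MMACHC in each case. Nothing states whether reads were assigned to genes by strand, and without strand the reads of both genes cannot be told apart in the shared stretch. MMACHC had 178 ± 7.46 normalised reads in Scramble and 65.4 ± 10.3 in shOGT (SD, n = 3 each), which is 6.73% and 0.921% of those of PRDX1, and its log2 fold change was −1.44 (adjusted p = 4.13e-06 from limma). The neighbour thus changed in the direction opposite to PRDX1 and at a far lower level. No stretch of 75 bases was shared with another gene for CAT, ME1 or GLO1, and their exons overlap no other gene.

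CAT (ENSG00000121691, chromosome 11 from 34438925 to 34472062, plus strand, 13 exons), the enzyme that removes the same substrate in peroxisomes, moved the other way. Scramble libraries 1 to 3 held 910.0, 797 and 864 normalised reads, against 274, 239 and 296 for shOGT libraries 4 to 6. Every shOGT library lay at least 501 below every Scramble library. The means were 857 ± 57.0 and 269 ± 28.8 (SD, n = 3 each), and the log2 fold change came to −1.67 ± 0.11 (standard error) with adjusted p = 6.35e-09 from limma. The value in shOGT rests on 223 to 260 reads per library, which gives a counting error of 6.35% beside a coefficient of variation of 10.7%. Of the 1230 other genes with a Scramble mean within 2-fold, 70.0% were lower and 304 had a lower log2 fold change.

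ME1 (ENSG00000065833, chromosome 6 from 83210389 to 83431071, minus strand, 14 exons), the source of cytosolic NADPH, showed the widest change of the 4. Normalised reads of 750.3, 788 and 874 for Scramble libraries 1 to 3 stood against 4183, 4753 and 4643 for shOGT libraries 4 to 6. The lowest shOGT library was 4.78 times the highest Scramble library. From means of 804 ± 63.4 and 4526 ± 303 (SD, n = 3 each), the log2 fold change came to 2.49 ± 0.09 (standard error) with adjusted p = 2.58e-11 from limma. Among 1237 other genes with a Scramble mean within 2-fold, 29.2% were higher and 9 had a higher log2 fold change. By level, ME1 stood at rank 1150 of the 5681 genes in Scramble and at rank 160 in shOGT.

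GLO1 (ENSG00000124767, chromosome 6 from 38675925 to 38703141, minus strand, 6 exons) carries out the opening step of methylglyoxal removal and changed least. With 2411, 2590 and 2638 normalised reads, Scramble libraries 1 to 3 lay above shOGT libraries 4 to 6, which held 950.5, 1205 and 1265. The shOGT library numbered 4 was the lowest, and the groups stood 1146 apart. The means were 2546 ± 120 and 1140 ± 167 (SD, n = 3 each), which puts the log2 fold change at −1.17 ± 0.11 (standard error) with adjusted p = 1.15e-07 from limma. The coefficient of variation in shOGT was 14.6%, the highest of the 4 genes in either group, against 3.09% from counting. Without the library numbered 4 the log2 fold change was −1.04, still past a 2-fold change. Of the 627 other genes within 2-fold in Scramble mean, 72.2% were lower and 356 had a lower log2 fold change, so GLO1 was among the smaller falls at its level.

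The direction of all 4 genes held in each processing tried, but the falls were smaller under another scaling, the median of ratios. With TMM, the scaling of edgeR, CAT stayed at −1.67 and GLO1 at −1.17. Rescaling by the median of ratios, taken over the listed genes, shifted the median over all genes up by 0.71 on the log2 scale, and after it 52.5% of the genes passed as higher and 19.2% as lower. On that scale ME1 had a log2 fold change of 3.21 and PRDX1 one of 2.14. CAT was at −0.95 (adjusted p = 4.04e-06 from limma) and GLO1 at −0.45 (adjusted p = 0.00584 from limma), and neither passed a 2-fold change. The median of ratios treats the middle ratio as no change, but every gene listed here had been selected for a change of at least 2-fold. Since the table holds only genes that changed, none of these scales can be checked against unchanged genes here.

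**Figure D2:**
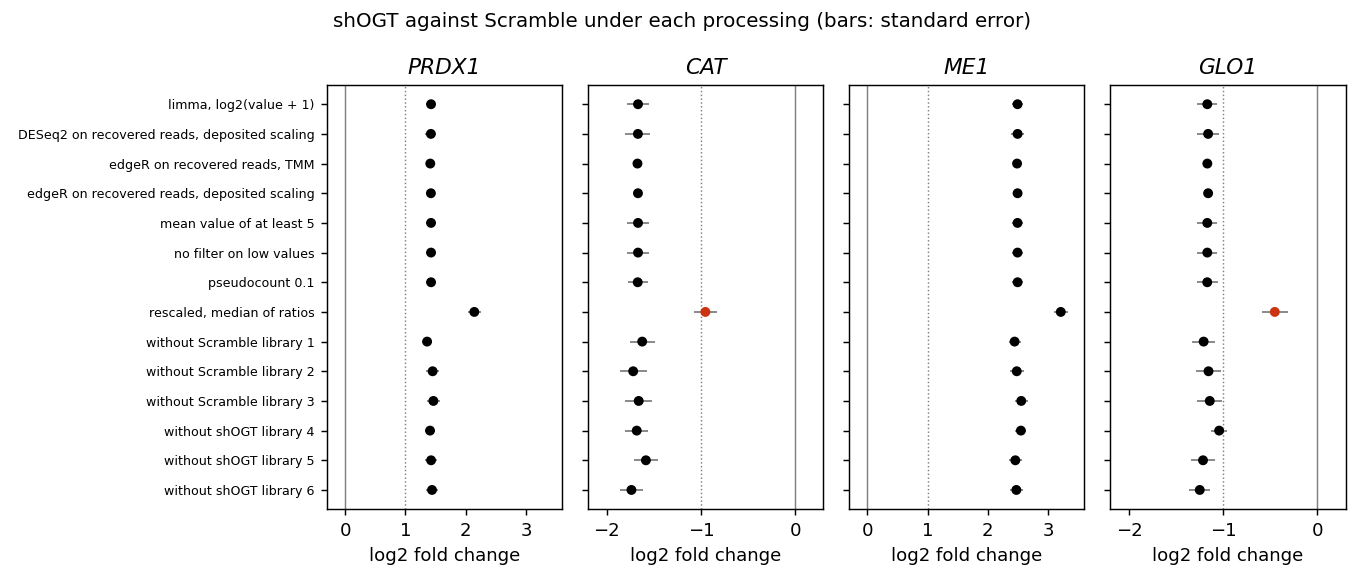
Log2 fold change of shOGT against Scramble (horizontal axes) for each gene under each processing (vertical axis), with standard errors where the tool gives them; edgeR gives none. The dotted line marks a 2-fold change and red points lie inside it: CAT at −0.95 and GLO1 at −0.45 after rescaling, while every other point stays outside.

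A ratio of 2 genes within a library does not depend on the scaling of libraries, and 6 such ratios were compared. PRDX1 to CAT came to 2.65, 3.44 and 3.23 for Scramble libraries 1 to 3, and to 26.6, 29.7 and 23.5 for shOGT libraries 4 to 6. The ratio of these 2 transcripts thus differed 8.54-fold between the groups, or 3.09 on the log2 scale. ME1 to CAT came to 0.825, 0.990 and 1.01 under Scramble, against 15.3, 19.9 and 15.7 under shOGT, a difference of 17.9-fold. ME1 to GLO1 differed 12.6-fold, with 0.304 to 0.331 under Scramble against 3.67 to 4.40 under shOGT. PRDX1 and GLO1 had nearly equal reads in Scramble, with ratios of at most 1.06, whereas shOGT ratios ran from 5.49 to 7.65. None of these 4 ratios overlapped between the groups. Each sets a gene that rose against one that fell, and the table holds only genes that changed at least 2-fold. The separation of such ratios therefore follows from that selection and adds no independent evidence.

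Genes that moved in the same direction also differed in how far they moved. ME1 to PRDX1 ranged from 0.288 to 0.313 under Scramble against 0.575 to 0.670 under shOGT, 2.09-fold apart. GLO1 to CAT ranged from 2.65 to 3.25 under Scramble against 3.47 to 5.04 under shOGT, 1.41-fold apart, and the gap between the groups was narrow. Each of the 6 ratios had an exact two-sided permutation p of 0.1, also 0.1 after Benjamini-Hochberg adjustment over the 6, which is the smallest p the design allows and does not reach 0.05.

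**Figure D3:**
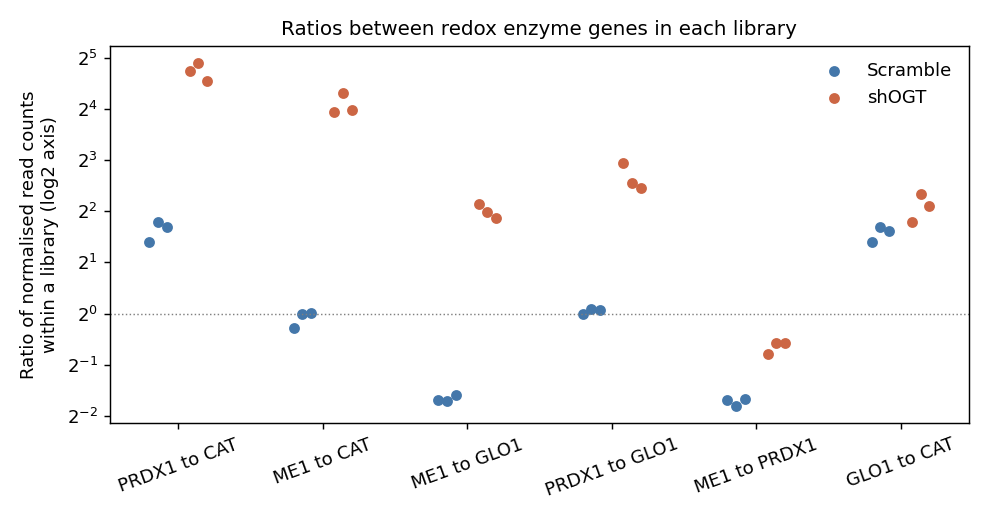
Ratio of normalised read counts of 2 genes within each library (log2 axis) for 6 pairs, with 3 Scramble and 3 shOGT libraries per pair. The groups are far apart where one gene rose and the other fell, as for PRDX1 to CAT (up to 3.44 against at least 23.5), and close for GLO1 to CAT (up to 3.25 against at least 3.47).

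Divided by exon length, levels can be set side by side between genes. In Scramble, PRDX1 stood at 1740 ± 134 normalised reads per kb of exon, GLO1 at 1083 ± 51.0, CAT at 239 ± 15.9 and ME1 at 239 ± 18.8 (SD, n = 3 each). CAT (222 to 253 per kb) and ME1 (223 to 259 per kb) overlapped and could not be ordered. In shOGT the order was PRDX1 at 4667 ± 107, ME1 at 1343 ± 89.8, GLO1 at 485 ± 70.9 and CAT at 75.1 ± 8.01 per kb (SD, n = 3 each), with no overlap between neighbours. Exon length here counts every annotated exon. With the longest coding transcript instead, CAT stood at 372 and ME1 at 239 per kb in Scramble, so the tie of these 2 genes rests on the length used, whereas the order in shOGT was the same.

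**Figure D4:**
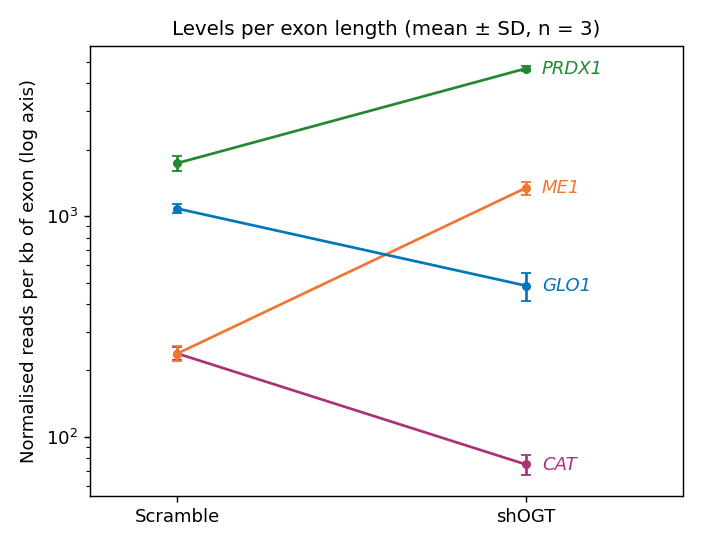
Normalised reads per kb of exon (log axis) in Scramble and shOGT for each gene; points are means and error bars SD (n = 3). CAT and ME1 start at the same level in Scramble, 239 per kb, and end at 75.1 and 1343 per kb in shOGT, where ME1 lies above GLO1.

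The surrounding pathways were described with 7 lists that hold 176 genes in all, of which 56 were in the table. All 56 passed the 2-fold change and the adjusted p, 18 higher and 38 lower, where 52.2% of all genes tested were higher and 47.2% lower. Their median log2 fold change was −1.19 beside 1.05 over all genes tested. As the table holds no gene inside a 2-fold change, such a median falls on one side or the other and says little more than the counts. Rescaling left 18 higher and 16 lower, where 52.5% of all genes were higher and 19.2% lower. Before rescaling, 70.0% to 72.4% of the other genes within 2-fold of a member's Scramble mean were lower, so falls were common at those levels. No share was taken at the levels of the list genes. The counts of each list below are to be read against all of these shares.

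Of 35 genes of peroxide removal and thioredoxin-linked repair, 10 were in the table, 4 higher and 6 lower, with a median log2 fold change of −1.07. After rescaling, 4 were higher and 2 of the 6 falls still passed, with a median of −0.36. Besides PRDX1, the higher genes were GPX3, the secreted glutathione peroxidase, at 790 ± 48.9 against 2793 ± 107 normalised reads (SD, n = 3 each), SESN3, a stress-responsive sestrin, with a log2 fold change of 1.60, and GLRX3. The lower genes lie in several compartments. TXNIP, which binds and inhibits thioredoxin, fell by 3.97 on the log2 scale to 6.41% of its Scramble level. The counts and medians of this list pool enzymes with this inhibitor, so they do not measure a capacity for peroxide removal. MSRB2, a mitochondrial methionine sulfoxide reductase, was at 194 ± 9.74 against 26.4 ± 7.42 (SD, n = 3 each). NXN, a thioredoxin-like oxidoreductase, fell by 1.47, and TXN2, the mitochondrial thioredoxin, and GPX8, of the endoplasmic reticulum, kept 46.5% and 48.0% of their Scramble levels. PRDX2 to PRDX6 were absent from the table and not analysed here.

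ME1 stood alone in its direction among the listed genes of NADPH supply that were in the table. Of 18 such genes, which include folate and NADP enzymes that do not themselves make NADPH, 7 were in the table, ME1 higher and the other 6 lower, with a median log2 fold change of −1.27. H6PD, which makes NADPH in the endoplasmic reticulum, had 1146 ± 104 normalised reads in Scramble and 255 ± 37.1 in shOGT (SD, n = 3 each). MTHFD2, of the mitochondrial folate cycle, fell by 1.56 on the log2 scale. MTHFD1L, a synthetase of the same cycle that makes no NADPH itself, was left with 44.1%. NNT, the mitochondrial transhydrogenase, was left with 41.2%, and the folate enzyme ALDH1L1 with 39.4%. NADK, the kinase that makes NADP from NAD, was left with 45.6%. After rescaling, 1 of these 6 falls passed a 2-fold change. Of 16 genes of malate and citrate shuttling, only ME1 and SLC25A10, a mitochondrial dicarboxylate carrier at 26.0% of its Scramble level, were in the table.

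Glutathione is the cofactor of GLO1. Of 18 genes of its synthesis and turnover, 8 were in the table, 2 higher and 6 lower, with a median log2 fold change of −1.36. After rescaling, 2 were higher and 1 of the 6 falls still passed, with a median of −0.65. GCLM, the modifier subunit of the rate-limiting ligase, rose from 1379 ± 83.0 to 3168 ± 49.6 normalised reads (SD, n = 3 each). The falls included GGT7 and GGT1, γ-glutamyl transferase family members, at 14.9% and 33.3% of Scramble, CHAC1 and GGCT, which break down glutathione and its γ-glutamyl products, at 33.0% and 31.7%, and OPLAH at 45.8%, and CTH fell as well. The value of GGT7 rests on few reads, with a mean of 4.68 normalised reads in shOGT. GGT5, also higher, had at most 3 reads in each Scramble library and was at least 2.85-fold higher in shOGT. Its call was lost when any of the shOGT libraries was left out or a mean of at least 5 was asked for, since it then failed the filter on low values, which left GCLM as the 1 higher gene.

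Methylglyoxal can be cleared by the glyoxalases or by aldo-keto reductases. Of 15 genes listed for this, 8 were in the table, 4 lower and 4 higher, with a median log2 fold change of 0.05. The even split depended on the scaling, since rescaling left 4 higher and 2 lower and put the median at 0.77. AKR1A1, which lies 27496 bases from PRDX1 on chromosome 1, fell from 1491 ± 146 to 233 ± 17.1 normalised reads (SD, n = 3 each), or by −2.67 as a log2 fold change. GLOD4, a glyoxalase domain protein, was left with 46.5%, and LDHD, the D-lactate dehydrogenase, with 21.3% at few reads. AKR1B10 rose from 945 ± 25.5 to 3233 ± 245 (SD, n = 3 each), AKR1B1 from 9.60 ± 2.58 to 86.2 ± 16.3 (SD, n = 3 each), and AKR1C1 and AKR1C2 had log2 fold changes of 1.37 and 1.20. AKR1C1 and AKR1C2 are close copies of each other, so the split of reads between them is uncertain.

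Of 41 regulators and targets of NRF2, 14 were in the table, 10 higher and 4 lower, with a median log2 fold change of 1.18. After rescaling, 10 were higher and 1 was lower. The counts pool targets with regulators such as CUL3, higher, and KEAP1, lower, so they do not count targets alone. PRDX1 and ME1 belong to this list and to its counts, and so do AKR1B10, AKR1C1, AKR1C2 and GCLM. CAT and GLO1, both lower, were not put on the list. It was chosen with earlier results of these data known, so its counts depend on which targets were listed. ABCC2, an export pump for glutathione conjugates, had the highest log2 fold change of the list at 3.75, from 8.42 ± 2.07 to 124 ± 8.24 normalised reads (SD, n = 3 each). HMOX1, heme oxygenase 1, was at 2.20 times, OSGIN1 at 2.03 times and CUL3, the ligase scaffold that works with KEAP1, at 2.23 times the Scramble mean. KEAP1, which holds NRF2 down, was left with 48.1%. The other lower genes were BLVRB, a biliverdin reductase, at 19.2%, UGDH at 39.5% and ABCC3 at 43.9%. NFE2L2, the gene of NRF2, and NQO1 were absent from the table and not analysed here.

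CAT is an enzyme of the peroxisome. Of 52 genes of this organelle, 15 were in the table, 12 lower and 3 higher beside 47.2% lower and 52.2% higher over all genes tested, with a median log2 fold change of −1.94. Among the other genes within 2-fold of CAT in Scramble mean, 70.0% were lower. PEX19, a chaperone for peroxisomal membrane proteins, had 998 ± 33.7 normalised reads in Scramble and 184 ± 25.9 in shOGT (SD, n = 3 each). CRAT, carnitine acetyltransferase, was left with 12.7%, PECR, a reductase of fatty acid elongation, with 16.9%, and the membrane protein PXMP4 with 11.8% at few reads. ECI2, an enoyl-CoA isomerase, was left with 11.5% at few reads, and PAOX, a polyamine oxidase, had no more than 3 reads under shOGT and was at least 20.2-fold lower. PEX11G, also at few reads, had a log2 fold change of −1.94, and EHHADH and FAR1 fell as well. The higher genes included ABCD3, a fatty acid transporter, and XDH, with log2 fold changes of 1.21 and 1.61. After rescaling, 8 were lower and 3 were higher, beside 19.2% lower and 52.5% higher over all genes. PEX5, the import receptor that carries catalase into the organelle, was absent from the table and not analysed here.

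**Figure D5:**
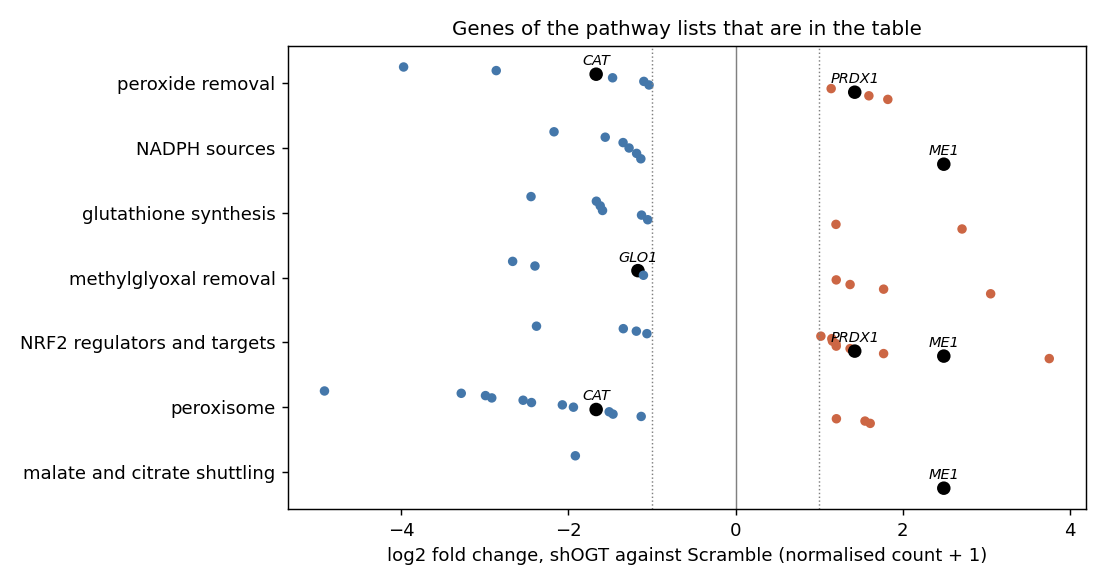
Log2 fold change of shOGT against Scramble (normalised count + 1, horizontal axis) for every gene of the 7 pathway lists that was in the table; points are coloured by direction, black ones are CAT, ME1, PRDX1 and GLO1, and dotted lines mark a 2-fold change. ME1 is the sole higher gene of the list named NADPH sources, and 12 of 15 peroxisome genes are lower; PAOX and GGT5, at the floor of reads in a group, are drawn at fitted values that are not bounds.

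The genes whose pattern over the 6 libraries was most like each enzyme were found by the Euclidean distance between log2 values, each centred on the gene's own Scramble mean, among 4817 genes with a mean of at least 10. The points share the division into 2 groups, which fixes most of the likeness. Nearest to PRDX1 was AKR1C1 at a distance of 0.129, then CAPZA2 at 0.129 and MIR22HG at 0.139. DPY19L1 was nearest to ME1 at 0.0752, followed by TLR6 and UBASH3B at 0.145 and 0.165. For CAT the nearest genes were ATG13, CDK4 and PPP4R4, at 0.170, 0.186 and 0.186, and for GLO1 they were UBE2J1, CALCOCO2 and USP1, at 0.0702, 0.123 and 0.127.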

How the data were processed

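Poly(A) RNA libraries of HT-29 cells were sequenced, 3 per hairpin, and samples were grouped by their titles. The authors deposited 1 table of signal values, which are normalised counts per gene and library. Beside them stand the authors' means, their own log2 fold changes and their p-values, raw and adjusted. These deposited comparisons gave the limits of the table and no result. The submitters' processing notes name cutadapt 1.9, HISAT2 2.0.4, UMI-tools, StringTie, DESeq2 and edgeR without roles, and list the genome build mm8, a mouse build. Positions and identifiers of all 5681 genes matched GENCODE version 29 on GRCh38, which was used here. Library kits differ between the labels and the paper's methods, and both keep the strand. As the values are not raw counts, the planned branch for normalised values was used. limma 3.58.1 (trend method, R 4.3.3) was fitted to log2(value + 1) with the group as the only term, for genes that reached a value of 1 in 3 or more libraries. A gene was called past a 2-fold change and a Benjamini-Hochberg adjusted p under 0.05. Whole reads were recovered for 100% of values (tolerance 0.02), and edgeR 4.0.16 and DESeq2 1.42.0 were run on them as alternatives and called 5666 and 5668 genes of the table, against 5636 with limma. Other alternatives were another scaling, pseudocount, filters and each library left out. The scripts were tested on simulated data. Intervals from reads cover counting error only. Folds against a group at or under 3 reads per library were given as lower bounds. The members, pathway lists, marker lists and motifs were chosen with earlier results of these data known. Named genes were the 4 members, OGT, list genes in the table by symbol (some are not reported here), with values for up to 6 genes a list, ranked by absolute log2 fold change at a mean of at least 10, and the 3 genes most like each member. Values of TXN2, GPX8, NADK, GGT5, GLOD4, HMOX1, OSGIN1, CUL3, KEAP1, UGDH, ABCC3, PEX11G, ABCD3 and XDH were given outside that rule, after they were seen, and neighbouring genes were named by position. Proteins and metabolites were not analysed here.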

Additional observations from a re-analysis of the deposited data

How the results depend on the processing

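The log2 fold changes of CAT, ME1, PRDX1 and GLO1 kept their direction under all alternatives run (another scaling, a pseudocount of 0.1, no filter, a mean of at least 5, edgeR with 2 scalings, DESeq2, and each of the 6 libraries left out). Rescaling by the median of ratios took CAT to −0.95 and GLO1 to −0.45, inside a 2-fold change, and left 16 of the 38 lower list genes past the call, while the whole table went from 2677 to 1090 lower calls and from 2959 to 2980 higher calls. The other alternatives kept CAT between −1.74 and −1.58, ME1 between 2.44 and 2.55, PRDX1 between 1.36 and 1.46 and GLO1 between −1.25 and −1.04. The 6 ratios between genes kept their direction with a pseudocount of 0.1 and with each library left out. No paired analysis was possible because the labels number the libraries from 1 to 6 and the groups share no number. With 3 libraries per group an exact test cannot reach 0.05.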

Other observations

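Protein-coding neighbours of the 4 genes that were in the table are given here with their values. Over all genes tested, 52.2% were higher and 47.2% lower, so a neighbour of either direction is common. RWDD2A, 11457 bases from ME1, had 156 ± 4.76 normalised reads in Scramble and 62.3 ± 15.5 in shOGT (SD, n = 3 each), and its log2 fold change of −1.34 stood against 2.49 for ME1. On the other side of ME1, PRSS35, higher as ME1 was, had a mean of 0.307 in Scramble, under the floor of 3 reads, and 32.6 in shOGT. ELF5, an epithelial transcription factor gene that lies 6731 bases beyond CAT on the opposite strand, had 45.8 ± 5.73 and 145 ± 12.7 (SD, n = 3 each), and its log2 fold change of 1.65 stood against −1.67 for CAT. Both neighbours of PRDX1 that were in the table, MMACHC and AKR1A1, were lower while PRDX1 was higher. DNAH8, 12200 bases from GLO1, had a mean of 0.613 in Scramble, also under that floor, and 9.18 in shOGT. These neighbours were chosen by position, and their values are given without an explanation.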
